A study of Mus musculus with 4 samples.

Results

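The transcripts described here encode the machinery that attaches the ubiquitin-like protein NEDD8 to cullins, the cullin-RING ubiquitin ligases that depend on it, and the COP9 signalosome that takes NEDD8 off again. The 41 members were taken by gene symbol from a list of NEDD8 enzymes, cullins, RING subunits, exchange factors, adaptors, substrate receptors and COP9 subunits, and all 41 were found among the 56953 genes of the deposited count table. RNA came from skin of wild type C57BL/6J mice treated topically on the dorsal skin for 3 days. In 2 samples the agent was NEDD8i, a code name for which the labels give no structure, at 10 µM, and in 2 it was DMSO. Whether the 2 samples of a group came from separate mice is not stated, so the p-values reflect the spread among these libraries, and that spread could be technical. Full-thickness skin was taken per the labels, while their extraction text speaks of cells.

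NEDD8 is activated by a heterodimeric E1 enzyme, passed to an E2 enzyme and joined to a lysine of a cullin, which opens the ligase for ubiquitin transfer. The COP9 signalosome removes it, and CAND1 then exchanges one substrate receptor for another. Through receptors such as KEAP1, VHL and the F-box proteins, these ligases control the stability of transcription factors, cell cycle inhibitors and signalling proteins in keratinocytes as in most cells. Neddylation happens on proteins, so transcript levels do not measure its activity.

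Each sample was one library of 3′ tags, which read the polyadenylated end of a transcript. Library totals were 8833217 to 8856572 counts in the NEDD8i group and 5639791 to 5955627 in the DMSO group, of which 52.6% to 61.7% fell on 3 ribosomal RNA genes. Levels are given as CPM, scaled by TMM (trimmed mean of M values, a library size correction), and the ribosomal counts are part of the total that CPM divides by. DMSO replicate 1 stood apart by its hair and melanocyte RNA. The 11 hair shaft and inner root sheath markers counted here took 0.004% and 0.104% of counts outside ribosomal RNA in NEDD8i replicates 1 and 2, against 1.62% and 0.00455% in DMSO replicates 1 and 2. Its melanocyte RNA was also highest, since the 6 melanocyte markers summed to 59.7 and 61.5 CPM in NEDD8i replicates 1 and 2, against 360 and 57.8 CPM in DMSO replicates 1 and 2. The keratinocyte markers were abundant in every library, at 7001.6 to 8232.1 summed CPM in NEDD8i and 5981.3 to 11657.3 in DMSO. The 6 endothelial markers summed to 6 and 18 counts in NEDD8i and 7 and 2 in DMSO, and Cdh5 was at 0 in all 4 libraries. The 7 fibroblast markers summed to 36.5 and 72.9 CPM in NEDD8i replicates 1 and 2, against 55.7 and 7.06 CPM in DMSO replicates 1 and 2, and 1 of the 5 tested, Dpt, was called higher. Dcn alone had 49.3 and 1.63 CPM in DMSO replicates 1 and 2. The other 4 tested were higher in NEDD8i without overlap of groups, as were 25% of all tested genes. Their log2 fold changes were 2.11 to 3.29, with 2 to 15 counts per DMSO library. The 9 leukocyte markers summed to 188 and 132 CPM in NEDD8i replicates 1 and 2, against 75.2 and 50.5 CPM in DMSO replicates 1 and 2, and 1 of the 8 tested, the neutrophil and stressed keratinocyte gene S100a8, was called higher. Of these 8, 4 had positive and 4 had negative log2 fold changes. Ptprc, for one, had 12.2 and 11.1 CPM in NEDD8i, against 15.3 and 12.9 CPM in DMSO. The part of these cells in the results below was not tested. In such bulk samples fewer cells of a type and less RNA per cell cannot be told apart.

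The comparison of NEDD8i with DMSO asks whether treated skin held different amounts of these transcripts. No member passed the test. Of the 37 members with enough counts to be tested, 0 were higher and 0 lower under the quasi-likelihood F test of edgeR, at a Benjamini-Hochberg adjusted p of 0.05 over 11388 genes. Of all tested genes 0.782% passed, 0.667% higher and 0.114% lower. DESeq2 and limma-voom also called 0 members. At an unadjusted p under 0.05 there were 5 members, 4 higher and 1 lower, which is 13.5% of those tested. Among all tested genes 16.5% had such a p, 8.62% higher and 7.86% lower. DESeq2 put 2 members under that limit, both higher, and limma-voom 4 higher and 1 lower. The balance turned with library sizes taken without TMM, where 0 were higher and 2 lower, and with the replicate number as a block 7 were higher and 1 lower. Over all genes such a p was held by 1572 with DESeq2 and, of 11388 tested, by 1777 with limma-voom. It was held by 1900 without TMM and 2215 with the block, both of 11388 tested, against 1877 in the edgeR fit above. Without TMM 36.3% of all tested genes had a positive log2 fold change, against 49.9% in the edgeR fit above. How such p-values split by direction over all genes was not counted for these alternatives. The 5 in edgeR were Nae1, a subunit of the NEDD8 E1, Dcun1d3, a NEDD8 co-ligase, Cops5, the catalytic subunit of the COP9 signalosome, Fbxw11, an F-box receptor, and, on the lower side, the NEDD8 protease gene Senp8. Their adjusted p-values ran from 0.178 for Fbxw11 to 0.262 for Senp8.

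The direction of most members was upward and small. Of the 37 tested, 26 had a positive log2 fold change (70.3%, against 49.9% of all tested genes), and the median was 0.33, against -0.00315 over all tested genes. With library sizes taken without TMM, 21 of 37 were positive, against 36.3% of all tested genes. The median of the members was then 0.12, while the median of all genes moved to -0.22. The groups did not overlap in CPM for 23 tested members, 19 of them higher and 4 lower after NEDD8i, which is 62.2% of the members tested. Over all tested genes 47.9% did not overlap, 25% with NEDD8i higher and 22.9% with NEDD8i lower. The members varied less between replicates than genes in general did, in a comparison not matched for expression level. The median fold between the 2 NEDD8i libraries was 1.15 over the members and 1.27 over all tested genes, and between the 2 DMSO libraries it was 1.19 over the members and 1.4 over all tested genes. Members as a whole took 0.304% and 0.323% of counts outside ribosomal RNA in NEDD8i replicates 1 and 2, against 0.298% and 0.274% in DMSO replicates 1 and 2.

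**Figure D1:**
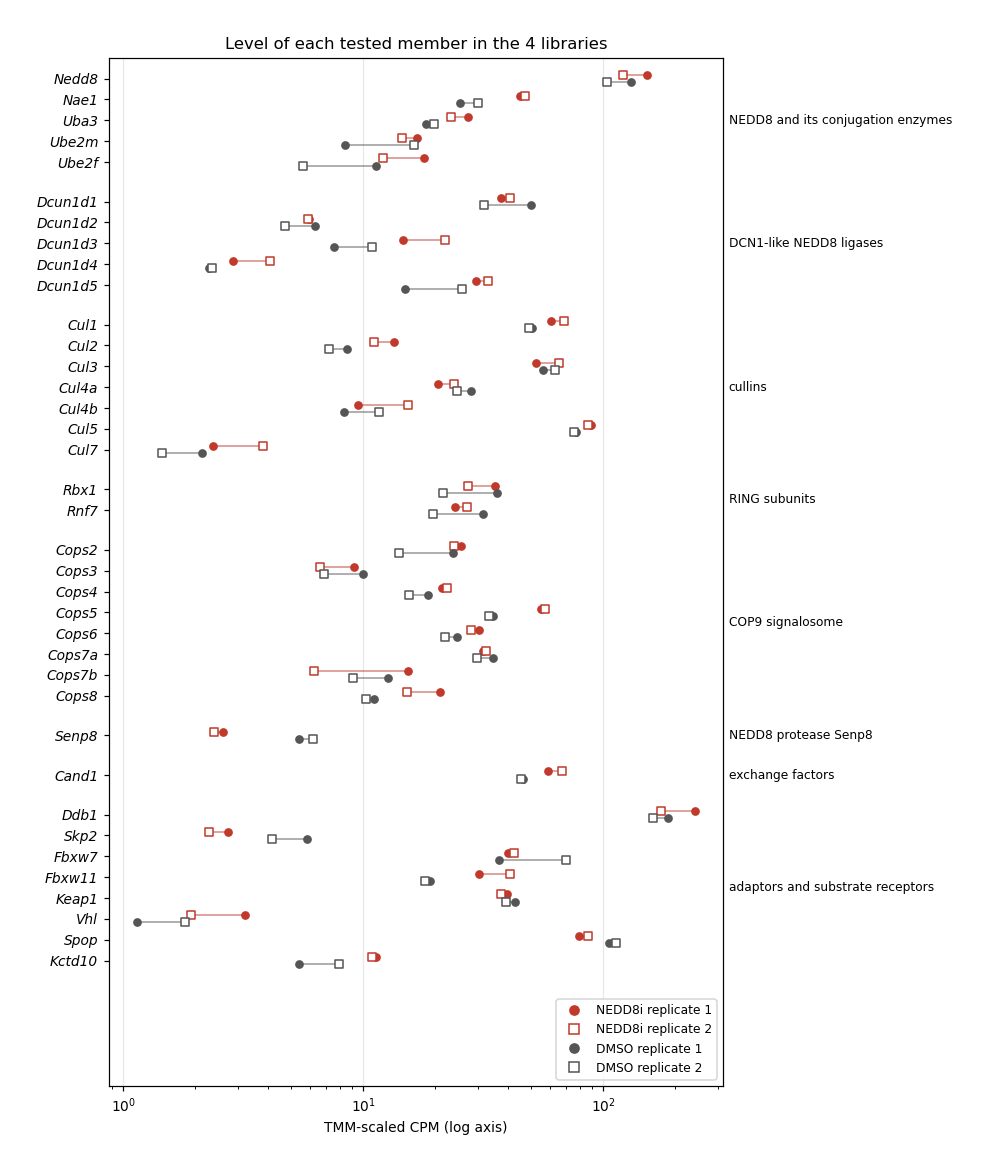
TMM-scaled CPM (log axis) of the 37 tested members in each library, grouped by role, with NEDD8i (red) above DMSO (grey) for each gene, circles for replicate 1 and squares for replicate 2. Most red and grey pairs lie close together. Senp8, at 2.61 and 2.4 CPM against 5.43 and 6.16 CPM, and Fbxw11, at 30.4 and 41.1 CPM against 19 and 18.1 CPM, are among the more separated pairs.

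Within this fit, the precision of each value bounds how large an undetected change between these libraries could be. Separate mice are not stated, so such bounds may not hold across animals. The standard error of a member's log2 fold change ran from 0.271 to 0.681, with a median of 0.341, against 0.42 over all tested genes. For 12 of the 37 tested members the 95% interval lay wholly between -1 and 1 on the log2 scale. In this fit such an interval leaves out a 2-fold change in either direction. The 12 were 32.4% of the members, against 17.1% of all tested genes, again without matching for level. Cul1 and Cops6 were inside by little, with upper bounds of 0.993 and 0.989. Intervals under other scalings or filters were not counted. For the other 25 members the interval reached beyond -1, beyond 1 or both. For 33 of the 37 members it lay between -2 and 2, against 72.3% of all tested genes.

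**Figure D2:**
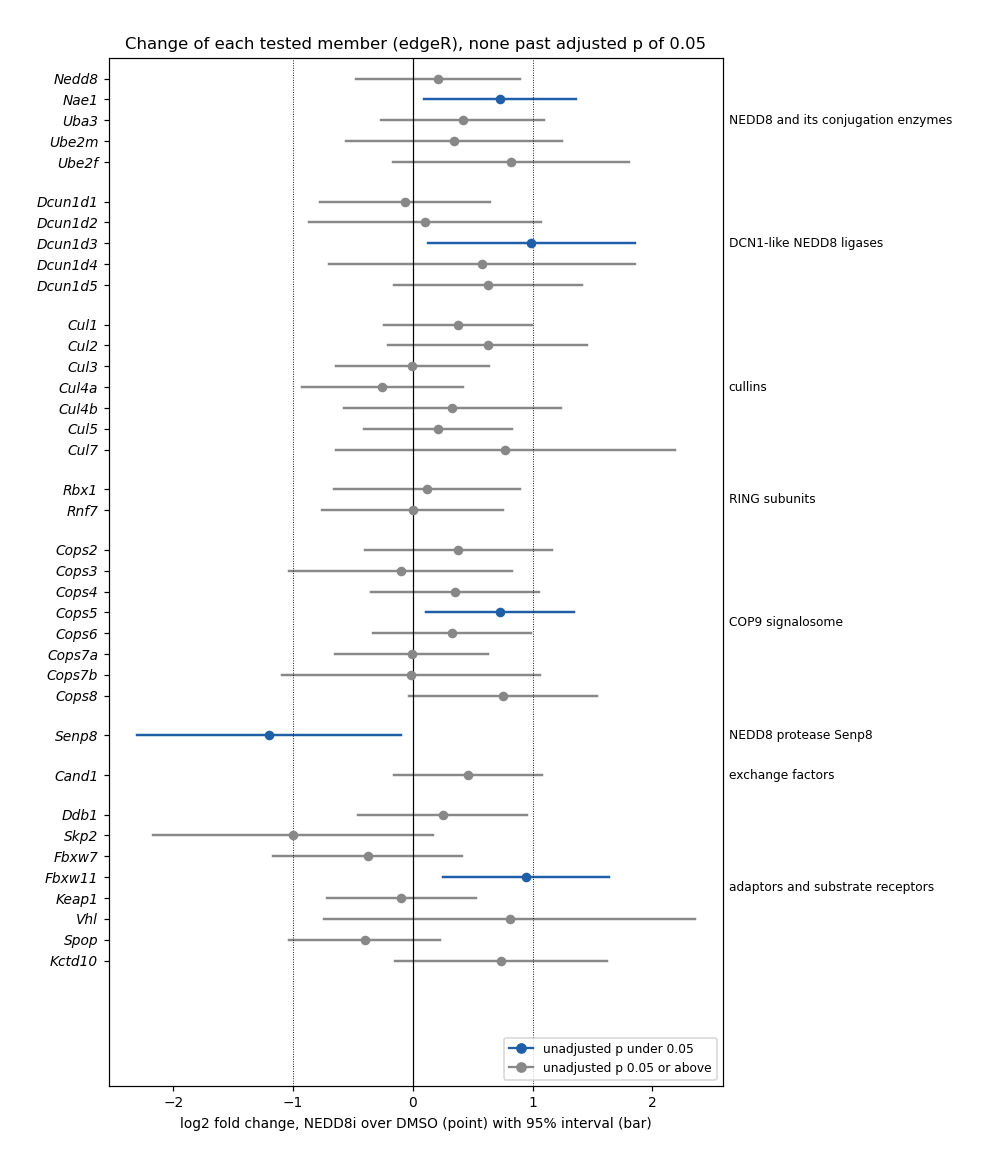
Log2 fold change of NEDD8i over DMSO for the 37 tested members, with points for edgeR estimates and bars for 95% intervals; dotted lines mark -1 and 1. The intervals of Nae1, Dcun1d3, Cops5 and Fbxw11 lie above 0 and that of Senp8 below it. Both RING subunits and Cul1, Cul3, Cul4a and Cul5 are held within the dotted lines.

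Promoter sequences are shown for 3 of these 5 genes, chosen as an E1 subunit and a receptor with higher values and the protease with lower ones. They are the 250 bases before the RefSeq start on GRCm38.p6, all printed 5′ to 3′ on the gene's strand. The Nae1 stretch is chr8:104534638-104534887 on the minus strand, that of Fbxw11 is chr11:32642305-32642554 on the plus strand, and that of Senp8 is chr9:59750650-59750899 on the minus strand. Capitals mark matches to the letters searched.
Nae1: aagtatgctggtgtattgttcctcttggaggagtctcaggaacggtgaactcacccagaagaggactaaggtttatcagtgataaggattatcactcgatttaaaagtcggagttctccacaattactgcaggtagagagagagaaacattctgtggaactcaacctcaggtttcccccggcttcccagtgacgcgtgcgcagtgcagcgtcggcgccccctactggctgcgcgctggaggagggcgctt
Fbxw11: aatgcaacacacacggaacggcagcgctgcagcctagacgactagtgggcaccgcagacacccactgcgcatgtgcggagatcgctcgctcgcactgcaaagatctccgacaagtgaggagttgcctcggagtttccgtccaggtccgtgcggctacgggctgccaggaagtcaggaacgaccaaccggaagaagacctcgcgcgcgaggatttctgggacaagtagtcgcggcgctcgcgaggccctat
Senp8: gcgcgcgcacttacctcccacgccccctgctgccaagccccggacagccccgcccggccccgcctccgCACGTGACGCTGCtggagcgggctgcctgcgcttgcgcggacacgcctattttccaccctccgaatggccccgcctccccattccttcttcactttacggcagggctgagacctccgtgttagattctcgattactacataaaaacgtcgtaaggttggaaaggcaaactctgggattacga

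The letters searched, on both strands, belong to factors whose protein stability cullin ligases control: the hypoxia response element core ACGTG, the antioxidant response element TGACNNNGC bound by NRF2, the AP-1 site TGANTCA and an E2F site TTTNNCGC. In the Senp8 stretch the hypoxia core occurs at a single place, the run CACGTG, which reads the same on both strands. That run overlaps the antioxidant element. The stretches of Nae1 and Fbxw11 hold none of the 4. RefSeq promoters were found for 37 of the 41 members, 53 promoters in all since some genes have several starts. The hypoxia core was in 24.5% of these 53, against 16.6% of all 32851 promoters. The antioxidant element was in 7.55%, against 10.2% of all promoters. The AP-1 letters were in 3.77%, against 6.75%, and the E2F letters in 1.89%, against 4.28%. The member promoters were richer in G and C, with a median of 62% and 17 CpG dinucleotides, against 52.4% and 6 over all promoters, and shares of a motif move with base composition. A match is a run of letters and not a shown binding site.

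The genes of NEDD8 itself and of its activation and transfer had positive log2 fold changes in all 5 cases, and 0 of 5 passed. Nedd8 (ENSMUSG00000010376.16, chr14:55899720-55909581, minus strand, coordinates taken to be GRCm39), the modifier itself, had 152 and 121 CPM in NEDD8i replicates 1 and 2, against 131 and 104 CPM in DMSO replicates 1 and 2. The groups overlapped, since DMSO replicate 1 lay above NEDD8i replicate 2. Nedd8 averaged 136 ± 21.9 CPM in NEDD8i and 118 ± 19.3 CPM in DMSO (SD, n = 2 each). The log2 fold change was 0.21 with a 95% interval of -0.47 to 0.89 (edgeR adjusted p = 0.791). Without TMM scaling its value was -0.03.

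Nae1 (ENSMUSG00000031878.19, chr8:105237660-105261269, minus strand), the regulatory subunit of the E1, had 45.1 and 47.1 CPM in NEDD8i replicates 1 and 2, against 25.4 and 30.2 CPM in DMSO replicates 1 and 2. Both NEDD8i libraries lay above both DMSO libraries. The log2 fold change was 0.73 (SE 0.28, interval 0.09 to 1.37, edgeR adjusted p = 0.244). Uba3, the catalytic subunit of the same E1, had 27.4 and 23.3 CPM in NEDD8i, against 18.3 and 19.7 CPM in DMSO. Its groups did not overlap either, at a log2 fold change of 0.42 (interval -0.27 to 1.10, edgeR adjusted p = 0.55).

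The 2 E2 genes differed between DMSO libraries more than the E1 genes did. Ube2m, whose product works with RBX1, had 16.8 and 14.5 CPM in NEDD8i, against 8.43 and 16.3 CPM in DMSO, so that the groups overlapped (log2 fold change 0.35, interval -0.56 to 1.25, edgeR adjusted p = 0.727). Ube2f, whose product works with RNF7 on CUL5, had 17.9 and 12.1 CPM in NEDD8i, against 11.3 and 5.61 CPM in DMSO. Its groups did not overlap, by a margin of less than 1 CPM, and the estimate on the log2 scale was 0.82, with an lower interval bound of -0.17 (edgeR adjusted p = 0.4). When DMSO replicate 1, where hair markers were highest, was left out, Ube2f stood at 1.40 and was called. That fit has a single DMSO library, so its p assumes that this library varies as the NEDD8i libraries do. The same fit called a larger share of all tested genes than of the members.

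Among the 5 DCN1-like genes, whose products help the E2 deliver NEDD8 to cullins, 4 had positive log2 fold changes and 0 passed. Dcun1d3 (ENSMUSG00000048787.14, chr7:119452019-119495514, minus strand), which encodes a membrane-associated form, had 14.7 and 21.9 CPM in NEDD8i replicates 1 and 2, against 7.57 and 10.9 CPM in DMSO replicates 1 and 2. Both NEDD8i values were the higher ones, and NEDD8i replicate 2 was the highest. The log2 fold change of 0.99 (SE 0.38, interval 0.13 to 1.85) was the largest positive one among the tested members (edgeR adjusted p = 0.242). Dcun1d5 had 29.6 and 33.2 CPM in NEDD8i, against 14.9 and 25.9 CPM in DMSO, without overlap (log2 fold change 0.62, edgeR adjusted p = 0.42). Dcun1d3 and Dcun1d5 were called without DMSO replicate 2, at 1.29 and 1.10 on the log2 scale, while the other 3 fits with a library left out gave neither call. The fit without DMSO replicate 2 has a single DMSO library, and it called a larger share of all tested genes than of the members. Over all alternatives the adjusted p ran from 0.0326 to 0.882 for Dcun1d3 and from 0.0379 to 0.895 for Dcun1d5. Dcun1d4 stood at 0.58, Dcun1d2 at 0.10 and Dcun1d1 at -0.06 on the log2 scale.

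**Figure D3:**
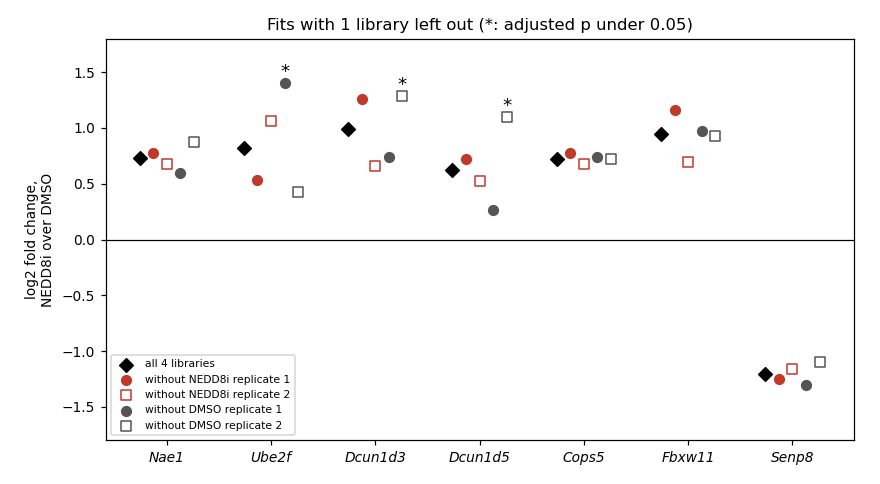
Log2 fold change of NEDD8i over DMSO for 7 members, the 5 with an unadjusted p under 0.05 and the others that passed in any fit, with all 4 libraries (diamonds) and with each library left out. Asterisks mark an edgeR adjusted p under 0.05, seen only in fits with a single DMSO library. Those fits called a larger share of all tested genes than of the members. Senp8 keeps values between -1.30 and -1.09 and Cops5 between 0.68 and 0.77 whichever library is left out.

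Cullins are the scaffolds that carry NEDD8, and 0 of the 7 tested passed. Cul7, whose product assembles with the F-box protein FBXW8, had the largest estimate and few counts. It had 2.36 and 3.84 CPM in NEDD8i, against 2.14 and 1.45 CPM in DMSO, a log2 fold change of 0.77 with a wide interval of -0.64 to 2.18 (edgeR adjusted p = 0.599). The scaffolds of the largest ligase families were better measured. Cul1, the scaffold of F-box ligases, had 60.8 and 68.6 CPM in NEDD8i, against 50.7 and 48.9 CPM in DMSO, a log2 fold change of 0.38 (interval -0.24 to 0.99). Cul3, the scaffold for BTB proteins such as KEAP1, had 52.7 and 65.8 CPM in NEDD8i, against 56 and 62.8 CPM in DMSO. Its log2 fold change was -0.0043 (interval -0.64 to 0.63), and the NEDD8i libraries lay on either side of the DMSO libraries. Cul5, which works with SOCS-box receptors, had 89.3 and 86.7 CPM in NEDD8i, against 76.9 and 75.3 CPM in DMSO. The replicates of Cul5 were within 1.03-fold of each other in both groups and the groups did not overlap, yet its log2 fold change was only 0.21 (interval -0.41 to 0.83).

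The paired CUL4 scaffolds had estimates of opposite sign. Cul4a had 20.5 and 23.8 CPM in NEDD8i, against 28.2 and 24.6 CPM in DMSO, a log2 fold change of -0.25 (interval -0.93 to 0.42). Cul4b had 9.56 and 15.4 CPM in NEDD8i, against 8.29 and 11.6 CPM in DMSO, a log2 fold change of 0.33 (interval -0.57 to 1.23). The intervals overlap widely, and the difference between both genes was not tested. Cul2, the scaffold for VHL, stood at 0.63 (interval -0.20 to 1.45) with NEDD8i higher in both libraries. Cul9, a large cullin with a ligase domain of its own, had 4 and 3 counts in NEDD8i and 0 and 0 in DMSO, too few to test. A count of 0 allows up to 0.429 and 0.543 CPM in DMSO replicates 1 and 2, which is about the 0.497 and 0.36 CPM seen in NEDD8i, and covers counting error only.

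The RING subunits recruit the E2 to the cullin, and neither passed. Rbx1, the partner of most cullins, had 35.3 and 27.3 CPM in NEDD8i, against 36 and 21.6 CPM in DMSO, and the DMSO libraries enclosed the NEDD8i libraries. Its log2 fold change was 0.12 (interval -0.66 to 0.89, edgeR adjusted p = 0.906). Rnf7, the partner of CUL5, averaged 25.6 ± 1.99 CPM in NEDD8i and 25.6 ± 8.5 CPM in DMSO (SD, n = 2 each). For both genes DMSO replicate 1 was the higher DMSO library, by 1.67-fold for Rbx1 and 1.61-fold for Rnf7.

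COP9 signalosome subunits gave 0 of 8 past the threshold, 5 with positive and 3 with negative log2 fold changes. Cops5 (ENSMUSG00000025917.10, chr1:10094826-10108352, minus strand), the metalloprotease that cleaves NEDD8 from cullins, had 55.1 and 57.5 CPM in NEDD8i, against 34.6 and 33.5 CPM in DMSO. Replicates were within 1.04-fold of each other, far less than the 1.65-fold between the groups. The log2 fold change was 0.73 (SE 0.27, interval 0.11 to 1.34, edgeR adjusted p = 0.23). Cops8, another subunit, had 21 and 15.3 CPM in NEDD8i, against 11.1 and 10.3 CPM in DMSO. It had the largest estimate of the complex, 0.75 (interval -0.03 to 1.54, edgeR adjusted p = 0.323). Cops6, the inactive partner of the protease, stood at 0.33 and the PCI-domain subunit genes Cops2 and Cops4 at 0.38 and 0.35, with no overlap of groups in any of the 3.

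The remaining COP9 subunits lay near 0. Cops3 had a log2 fold change of -0.10, and the alternative subunits Cops7a and Cops7b both had -0.01. Cops7a was even across libraries, at 31.5 and 32.6 CPM in NEDD8i against 34.7 and 29.7 CPM in DMSO. Cops7b was not, at 15.4 and 6.25 CPM in NEDD8i against 12.7 and 9.06 CPM in DMSO, so that its NEDD8i libraries differed 2.46-fold. Gps1, which encodes the CSN1 subunit, had 5 and 1 counts in NEDD8i and 9 and 1 in DMSO and was not tested. Subunits of this complex act together, yet these counts do not show how much of the whole complex was present.

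Senp8 (ENSMUSG00000051705.14, chr9:59641542-59657932, minus strand) encodes the other NEDD8 protease, which matures the NEDD8 precursor and strips NEDD8 from proteins other than cullins. It had 21 and 20 counts in NEDD8i (2.61 and 2.4 CPM), against 38 and 34 counts in DMSO (5.43 and 6.16 CPM). Both NEDD8i libraries lay below both DMSO libraries, although the NEDD8i libraries were deeper. The log2 fold change of -1.20 (SE 0.49, interval -2.30 to -0.10) was the lowest among the tested members (edgeR adjusted p = 0.262). In no alternative did its adjusted p go under 0.168. With so few counts the interval reaches from a fold of 0.203 to one of 0.932.

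Cand1, which removes substrate receptors from cullins that lack NEDD8, had 59.1 and 67.3 CPM in NEDD8i, against 46.3 and 45.5 CPM in DMSO. Its groups did not overlap, at a log2 fold change of 0.46 (interval -0.16 to 1.08, edgeR adjusted p = 0.45). Its relative Cand2 had 0 and 2 counts in NEDD8i and 10 and 2 in DMSO and was not tested. Cand2 also shares 99 exon bases with the ribosomal protein gene Rpl32 on the opposite strand, which had 4289 to 6574 counts in NEDD8i and 3316 to 4283 in DMSO, and no source used here says whether counting used strand.

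Adaptors and substrate receptors decide which proteins are ubiquitinated, and 0 of 8 tested passed, with 4 positive and 4 negative estimates. Fbxw11 (ENSMUSG00000020271.18, chr11:32592724-32696816, plus strand), a beta-TrCP protein that recognises phosphorylated IkB and beta-catenin, had 30.4 and 41.1 CPM in NEDD8i, against 19 and 18.1 CPM in DMSO. Both NEDD8i libraries stood clear of both DMSO libraries. The log2 fold change of 0.95 (SE 0.31, interval 0.25 to 1.64) had the smallest p of all members (edgeR adjusted p = 0.178), at rank 851 among all tested genes. Its adjusted p came closest to the threshold without DMSO replicate 1, at 0.0725, within a range of 0.0725 to 0.813 over all alternatives. Its paralog Btrc had 4 and 4 counts in NEDD8i and 1 and 10 in DMSO and was not tested.

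Skp2, the F-box receptor for the cell cycle inhibitor encoded by Cdkn1b and a gene of dividing cells, had 22 and 19 counts in NEDD8i (2.73 and 2.28 CPM), against 41 and 23 counts in DMSO (5.86 and 4.17 CPM). The groups did not overlap, at 0.5 times the DMSO level (log2 interval -2.17 to 0.17, edgeR adjusted p = 0.386). DMSO replicate 1, where hair markers were highest, was also the highest library for Skp2, and the log2 fold change without it was -0.74. The part of hair RNA in this value was not tested. Fbxw7, the receptor for cyclin E, MYC and NOTCH, had 40 and 42.5 CPM in NEDD8i, against 37 and 70.3 CPM in DMSO. Its log2 fold change of -0.38 rested on DMSO replicate 2 and was 0.18 without it.

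Receptors of CUL3 and CUL2 and the CUL4 adaptor were mixed. Keap1, the sensor that holds NRF2 down, was even, at 39.7 and 37.5 CPM in NEDD8i against 43 and 39.5 CPM in DMSO (log2 fold change -0.10, interval -0.72 to 0.52). Spop, a nuclear BTB receptor, had 79.2 and 86.4 CPM in NEDD8i, against 106 and 113 CPM in DMSO. Its groups did not overlap, and its log2 fold change was -0.40 (interval -1.03 to 0.23, edgeR adjusted p = 0.526). Kctd10, a BTB adaptor for the small GTPase RHOB, had 11.3 and 10.9 CPM in NEDD8i, against 5.43 and 7.97 CPM in DMSO (log2 fold change 0.74, interval -0.15 to 1.62). Vhl, the receptor for hydroxylated HIF1A, had 26 and 16 counts in NEDD8i and 8 and 10 in DMSO. Its log2 fold change of 0.81 had the widest interval of the members, -0.74 to 2.35. Ddb1, the CUL4 adaptor, had 241 and 174 CPM in NEDD8i, against 187 and 162 CPM in DMSO, with overlap (log2 fold change 0.25).

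Counting could mix reads for a few members. Exons of 10 members overlap another counted gene, in each case on the opposite strand, and the other 31 overlap none. Apart from Cand2, the overlapping genes with more than 12 counts in a library were Mcm7, which shares 111 bases with Cops6 and had 116 and 144 counts in NEDD8i and 189 and 104 in DMSO, and Galk2, which shares 12 bases with Cops2. The counted copies Rbx1-ps, Rnf7l and Vhl-ps1 had 0 counts in all libraries. No source used here says how reads that fit several genes were treated.

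Beyond the members, 8 lists of related genes held 198 genes, of which 186 were tested and 0 passed in edgeR, against 0.782% of all tested genes. At an unadjusted p under 0.05 there were 23 (12.4%), against 16.5% of all tested genes. Under alternatives with all 4 libraries, Hif1a and Senp7 were called with DESeq2 and with the replicate block. These and Pmaip1 were called without a filter and with a block whose numbers are swapped in 1 group. Senp7 alone was called after thinning, and 0 genes under the others, limma-voom among them. In each of these fits with a call, the share called was smaller among related genes than among all genes tested. The shares were 0.552% against 1.31% after thinning and 1.61% against 4.24% with the swapped block. Without DMSO replicate 1 edgeR called 11 higher and 4 lower, which is 7.98% of the related genes against 10.4% of all genes tested in that fit. Without DMSO replicate 2 it called 3 higher and 4 lower, 3.7% against 10.7%, while leaving out either NEDD8i library gave 0. Other core cofactors of cullin ligases had 15 of 20 positive log2 fold changes and a median of 0.17. Cacul1 stood at 0.93 and Ube2d3, an E2 that starts ubiquitin chains, at 0.91 (edgeR adjusted p = 0.204 and 0.211). Ube2d3 was called at 1.21 without DMSO replicate 1 (edgeR adjusted p = 0.00583, range 0.00583 to 0.854). Receptor lists were centred close to 0, with medians of -0.02 for 28 F-box genes, 0.06 for 18 CUL4 receptors, 0.08 for 36 BTB receptors and -0.05 for 28 receptors of CUL2 and CUL5. The genes of smallest p in the F-box list were Fbxo32, an atrophy-associated receptor, at -1.01 and Fbxo33 at 0.66. Fbxo32 had 20.2 and 44.8 CPM in NEDD8i, against 63 and 67.9 CPM in DMSO, and stood at -0.53 without NEDD8i replicate 1 and -1.71 without NEDD8i replicate 2. It was called without either DMSO library (edgeR adjusted p = 0.014 and 0.0402, range 0.014 to 0.923 over the 4 fits). In the CUL4 list they were Dtl, which targets the replication factor CDT1, at -2.37 and Dcaf17 at -0.93. Dtl had 4 and 10 counts in NEDD8i, against 42 and 16 in DMSO, with DMSO replicate 1 the highest. Its value ran from -3.14 without NEDD8i replicate 2 to -1.76 without DMSO replicate 1, and it was called only without DMSO replicate 2 among these fits (edgeR adjusted p = 0.00798, range 0.00798 to 0.757). Dcaf17 ran from -1.21 without DMSO replicate 1, where it was called, to -0.59 without DMSO replicate 2 (edgeR adjusted p = 0.0287, range 0.0287 to 0.845). In the BTB list they were Kctd9 at 1.02 and Btbd9 at 0.79, and in the CUL2 and CUL5 list Socs6 at 0.93 and Klhdc2 at -1.25. Klhdc2 had 43 and 35 counts in NEDD8i, against 111 and 37 in DMSO replicates 1 and 2. It stood at -0.50 without DMSO replicate 1, the library with the highest hair markers, and was called at -1.71 without DMSO replicate 2 (edgeR adjusted p = 0.00171, range 0.00171 to 0.796).

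Transcripts of 30 tested substrates of cullin ligases had a median log2 fold change of 0.004 (15 positive, 15 negative). Hif1a, the hypoxia factor that VHL marks for degradation, had 150 and 141 CPM in NEDD8i, against 47 and 64.1 CPM in DMSO, 1.39 on the log2 scale (SE 0.30, edgeR adjusted p = 0.0732). It passed with DESeq2 (adjusted p = 0.00199) and in edgeR without a filter (0.00287) and with the replicate block (0.0361), within a range of 0.000441 to 0.548 over all alternatives. Pmaip1, which encodes the cell death protein NOXA, stood at 1.62 (edgeR adjusted p = 0.0935, range 0.00293 to 0.642 over all alternatives). Among 16 tested SUMO pathway genes, the other modifier system named in the study's title, the median was 0.15. Senp7, a protease for SUMO chains, had 6.58 and 6.25 CPM in NEDD8i, against 21.6 and 21.2 CPM in DMSO, -1.73 on the log2 scale (SE 0.34, edgeR adjusted p = 0.0567). It passed with DESeq2 (adjusted p = 0.0102) and in edgeR without a filter (0.00232), after thinning (0.0456) and with the replicate block (0.0328), within a range of 0.000466 to 0.392 over all alternatives. Senp3, a nucleolar SUMO protease, stood at 0.95 and was called at 1.15 without DMSO replicate 1 (edgeR adjusted p = 0.0189, range 0.0189 to 0.824). In the list of ubiquitin, UFM1 and ISG15 enzymes the median was 0.14, with Ufm1, a ubiquitin-like modifier, at 0.80. Whether these medians differ from that of the members was not tested.

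**Figure D4:**
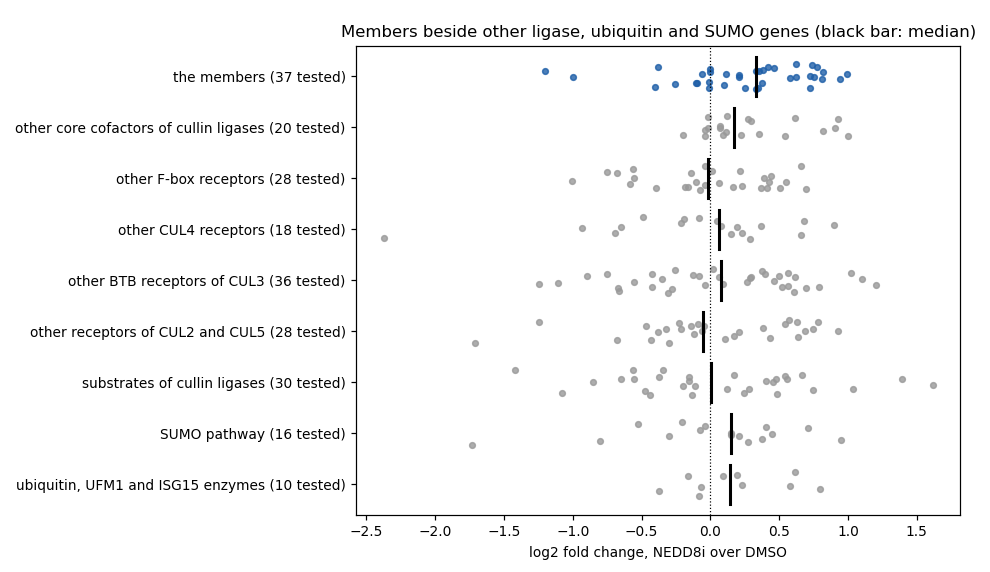
Log2 fold change of NEDD8i over DMSO for each tested gene (points, with vertical scatter for legibility) in the members (blue) and 8 related lists (grey), with black bars at the medians. The members have the rightmost median, 0.33, and reach from -1.20 to 0.99, while the outermost points belong to Dtl at -2.37 and Pmaip1 at 1.62.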

How the data were processed

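The authors deposited raw read counts per gene for 56953 genes in 4 libraries made with a 3′ tag kit, per the labels' protocols. The submitters' processing notes name STAR, featureCounts and DESeq2. Their versions, strand setting and multimapper handling are not given in the sources used here. The notes also name GRCm38 and GRCm39. Of 52029 genes matched by ID to GENCODE M21 on GRCm38, 2.7% shared a start, so deposited coordinates are taken to be GRCm39.

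Counts were tested as deposited in R 4.3.3 with edgeR 4.0.16 (TMM, filterByExpr with minimum count 10 and minimum total 15, robust quasi-likelihood F test, group alone, Benjamini-Hochberg over 11388 genes at 0.05). TMM factors were 0.912 and 0.945 for NEDD8i and 1.18 and 0.982 for DMSO. The chi-square per degree of freedom between libraries was 16.5 to 41.6, so none was a duplicate. Standard errors come from the F statistic and 95% intervals from its degrees of freedom. Reads carry no molecular identifiers as far as stated, so floors of 3 counts cover counting error only.

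The members and lists were chosen with earlier results of these data known. Full values were given for the NEDD8 conjugation genes, for members at an unadjusted p under 0.05 without overlap of groups, and for the largest change in each role; other members were given more briefly. From each related list the 2 genes with the smallest p were named, apart from 1 gene that is not reported here. Alternatives were DESeq2 1.42.0, limma-voom (limma 3.58.1), other scalings and filters, thinning to 2287839 counts, a replicate block and each library left out. The steps were tested on simulated data. One listed marker was not analysed here.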

Additional observations from a re-analysis of the deposited data

How the results depend on the processing

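Members called numbered 0 in each direction under all 11 settings that keep 4 libraries. With 1 library left out, members higher ranged from 0 to 2 and members lower were 0 each time. The count over all genes depended more on the setting. Genes higher and lower, 76 and 13 in the reported fit, were 227 and 165 with DESeq2, 25 and 2 with limma-voom, 385 and 318 without a filter, and 45 and 3 without the robust option. Genes higher were 38 without TMM, and genes lower were 39 after thinning. With 1 library left out they ranged from 41 to 692 higher and 3 to 712 lower. Leaving out either DMSO library gave the high counts, 692 and 593 without replicate 1 and 646 and 712 without replicate 2, and leaving out either NEDD8i library gave the low ones. With the replicate number as a block they were 179 and 106, and with the crossed numbers, added after seeing the data because same-numbered samples deviated apart (r = -0.13 across all tested genes, though 0.27 across the 37 tested members), 248 and 235. The labels do not say that a number marks anything shared. The cause of these moves was not tested. Of 407 values of members under these 11 settings, 13 changed sign, in 8 members. Without TMM these were Nedd8 at -0.03, Dcun1d2 at -0.13, Cul5 at -0.012, Rbx1 at -0.14 and Rnf7 at -0.25. Without a filter they were Cul3 at 0.023, Cops7a at 0.018 and Cops7b at 0.016. Cul3 was 0.006 after thinning. Rnf7, at 0.000436 in the reported fit, was also -0.016 with DESeq2, -0.023 with RLE factors, -0.026 without ribosomal RNA genes and -0.008 with the fixed filter. With 1 library left out, 26 members kept their sign. The values of the other 11 ran from -0.07 to 0.91 for Ube2m, -0.33 to 0.29 for Dcun1d1, -0.067 to 0.32 for Dcun1d2, -0.19 to 0.16 for Cul3, -0.068 to 0.65 for Cul4b, -0.19 to 0.52 for Rbx1, -0.28 to 0.38 for Rnf7, -0.34 to 0.19 for Cops3, -0.10 to 0.10 for Cops7a, -0.78 to 0.48 for Cops7b and -0.78 to 0.18 for Fbxw7. Depth limits Senp8, Skp2, Vhl, Cul7 and Dcun1d4 most, with 8 to 41 counts per library.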
